A study of Homo sapiens with 9 samples.

Results

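The 33 genes described here make, load and control the peptide receptors of the major histocompatibility complex (MHC), and they were chosen by symbol from the 57733 genes of the deposited tables. They are 6 class I genes (5 heavy chains and B2M), 6 peptide loading genes, 5 immunoproteasome and proteasome activator genes, 3 trimming peptidases, 8 class II genes and 5 transcriptional activators. Of the 33 genes 16 lie on chromosome 6 and 5 on chromosome 5. RNA made during a 0.5 h pulse of 2 mM bromouridine was captured from PANC-1, a human pancreatic carcinoma line, in KDM6A CRISPR/Cas9 clones KO C28 and KO C22 and in a control line that received no guide RNA (WT). Each line gave 2 Bru-seq libraries, and 1 BruUV-seq library from cells that also received 100 J/m2 of UV light. Each knockout line is a single clone, so the deletion and other differences between clones cannot be told apart. The labels do not say whether the replicates of a line came from separate cultures, so p-values reflect the spread of these libraries alone, which may be technical. The KDM6A protein takes methyl groups off histone H3 at silenced genes.

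In the class I route, proteasomes cut cytosolic proteins into peptides, the TAP transporter carries them into the endoplasmic reticulum, and a loading complex fits them into a heavy chain paired with B2M for display to cytotoxic T cells. In the class II route, endosomal peptides replace the remnant of the invariant chain CD74 on class II dimers, mostly in professional antigen presenting cells. NLRC5 activates class I genes and CIITA class II genes, both through promoter-bound RFX proteins, and interferon gamma is the best known inducer of both routes.

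Libraries held 5.64 to 31.1 M estimated reads in genes, and a pair of them stood apart. Bru-seq KO C28 replicate 2 was the shallowest, and 46.5% of the reads in it lay outside genes, a share that was 9.93% to 20.0% elsewhere. Reads over 403 olfactory receptor genes were taken as a gauge of background, without a check of single receptors. They came to 0.911 per kb in that library and 0.564 per kb in Bru-seq KO C22 replicate 1, against 0.0663 to 0.196 per kb in the other 7. Nascent KDM6A, given as CPM (reads per M reads in genes after TMM scaling), stood at 324 and 77.7 CPM in KO C28, 253 and 439.5 CPM in KO C22 and 318 and 283 CPM in WT in Bru-seq. A small edit in the coding sequence need not alter transcription, so these levels do not test the labels. The epithelial keratins KRT8 and KRT18 and the mesenchymal filament gene VIM had reads in all 9 libraries, and 12 leukocyte markers summed to 43.7 CPM in Bru-seq KO C28 replicate 2 (3 of 12 at 0 reads) and to 1.38 to 8.29 CPM in the others (2 to 7 of 12 at 0). PTPRC, the common leukocyte marker, had 44 reads in that library, 51 in Bru-seq KO C22 replicate 1 and 0 to 16 in the other 7.

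No antigen presentation gene passed the test in any comparison of a clone with WT, of the clones with each other or of the assays (edgeR quasi-likelihood F test, Benjamini-Hochberg adjusted p under 0.05 over all genes tested). Each fit could test 27 of the 33 genes after a filter on low counts. HLA-DRA, HLA-DRB1, HLA-DPA1, HLA-DMA and HLA-DMB entered neither fit, HLA-DPB1 entered only the fit of the 6 Bru-seq libraries and HLA-G only the fit of all 9 libraries. In KO C28 against WT with both assays, 0 of 27 genes passed (0.125% of all genes did, and the members' adjusted p ran from 0.416 to 0.992). At an unadjusted p under 0.05, 10 of the 27 were higher (7.55% of all genes) and 0 lower, namely CIITA, PSME1, PSME2, PSMB8, PSMB9, TAP1, HLA-B, CD74, ERAP2 and RFXANK. How many of all genes were lower was not counted, here and in the comparisons below. The WT libraries alone held too few reads of CIITA (3, 4 and 14) and CD74 (3, 15 and 15) for the filter. Both genes entered the fits through the knockout libraries, so their higher values come partly by selection. The median log2 fold change of the 27 was 1.02, against -0.06 for all genes tested. Without Bru-seq KO C28 replicate 2 the 10 became 3 (2.45% of all genes) and the median 0.71, and without both libraries rich in olfactory receptor reads, an alternative added after seeing the data, they became 4 (2.75%) and 0.64. The count was 2 without WT replicate 1 (3.62% of all genes) or the WT BruUV-seq library (4.90%) and 3 without WT replicate 2 (3.06%). It was 5 without BruUV-seq KO C22 (5.31%) and 15 without BruUV-seq KO C28 (10.5%, members' median 1.64). Without Bru-seq KO C28 replicate 1 the median was 1.54. DESeq2 put CIITA and PSME1 past the adjusted threshold (711 of all genes), and edgeR without the filter put PSME1, PSME2 and HLA-B there (1100 of all genes).

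The 6 Bru-seq libraries alone gave KO C28 a median of 1.20 against WT (-0.08 for all genes), with 0 of 27 passing (0.00438% of all genes, adjusted p 0.728 to 0.997 for the members). CIITA, PSME1, PSME2 and HLA-B were higher at an unadjusted p under 0.05, 4 of 27 against 4.65% of all genes. This count changed with single libraries left out, which leaves 1 library in a line. The median was then 0.78 without KO C28 replicate 2 and 1.70 without KO C28 replicate 1. It was 1.27 without WT replicate 2 and 1.29 without WT replicate 1. DESeq2 put CIITA past the adjusted threshold, with 199 of all genes. Both KO C28 libraries lay above both WT libraries for 17 of the 27 (18.3% of all genes) and below for 0 (share of all genes below not counted). Within KO C28, replicate 2 exceeded replicate 1 for 23 of the 27 genes and for 55.1% of all genes. The median log2 was 1.11 against 0.30 over all genes, so the replicates of this clone stood apart. In bulk RNA, fewer cells making a transcript and less RNA per cell cannot be told apart. Replicate 2 was also the highest of the 6 Bru-seq libraries for 23 of the 27, and for 40.4% of all genes tested. How far the composition of that library sets these values was not tested.

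In KO C22 the medians over the same genes were smaller. With Bru-seq alone 0 of 27 passed (0.00438% of all genes, adjusted p 1 for every member), CIITA was the only gene higher at an unadjusted p under 0.05 (1 of 27, 1.24% of all genes), and the median log2 fold change was 0.27 against 0.07 for all genes. That median turned to -0.21 without KO C22 replicate 1 and was 0.49 without replicate 2. Both KO C22 libraries lay above both WT libraries for 6 genes (11.1% of all genes), CIITA, CTSS, ERAP1, ERAP2, PSMB10 and RFX5, and below for CALR and PDIA3 (share of all genes below not counted). PSMB10 did so at 10 and 10 reads in KO C22 against 10 and 7 in WT, so its place there rests on scaling. With both assays 0 of 27 passed (0.178% of all genes), 3 were higher at an unadjusted p under 0.05 (3.2% of all genes), CIITA, ERAP1 and ERAP2, and the median was 0.57. The BruUV-seq library of KO C22 was the highest of the 3 BruUV-seq libraries for 22 of 27 members and for 32.1% of all genes tested. Without it the both-assay median for KO C22 was 0.17 and the count 1 (1.76% of all genes), and without KO C22 replicate 2 the median was 0.89. The count was 0 without Bru-seq WT replicate 1 (1.91%), WT replicate 2 (2.32%) or KO C28 replicate 1 (2.96%). It was 1 without Bru-seq KO C22 replicate 1 (2.79%) or without the WT (1.57%) or KO C28 (2.29%) BruUV-seq library. In Bru-seq alone the median was 0.36 without WT replicate 1 and 0.22 without WT replicate 2, and the count also changed with single libraries left out.

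Between the clones, 0 of 27 genes passed in Bru-seq (0% of all genes) and in both assays (0%). In Bru-seq 3 genes were higher in KO C28 at an unadjusted p under 0.05 (1.77% of all genes), PSME1, PSME2 and CALR, with a median of 0.93. With both assays 0 of 27 were (2.96% of all genes), with a median of 0.51. Without Bru-seq KO C28 replicate 2 the medians were 0.51 in Bru-seq and 0.02 with both assays, where the count was 0 (2.14% of all genes). Without BruUV-seq KO C22 the both-assay count was 4 (2.73%, members' median 0.93) and without BruUV-seq KO C28 3 (5.31%, members' median 1.16). Without Bru-seq KO C22 replicate 2 the Bru-seq median was 0.63 and the both-assay median 0.079. Without Bru-seq KO C28 replicate 1 they were 1.34 and 0.96. The Bru-seq count also changed with single libraries left out. Both comparisons with WT share the WT libraries, so their values are given side by side and not combined. The plot of log2 fold changes shows all 27 genes with both assays.

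**Figure D1:**
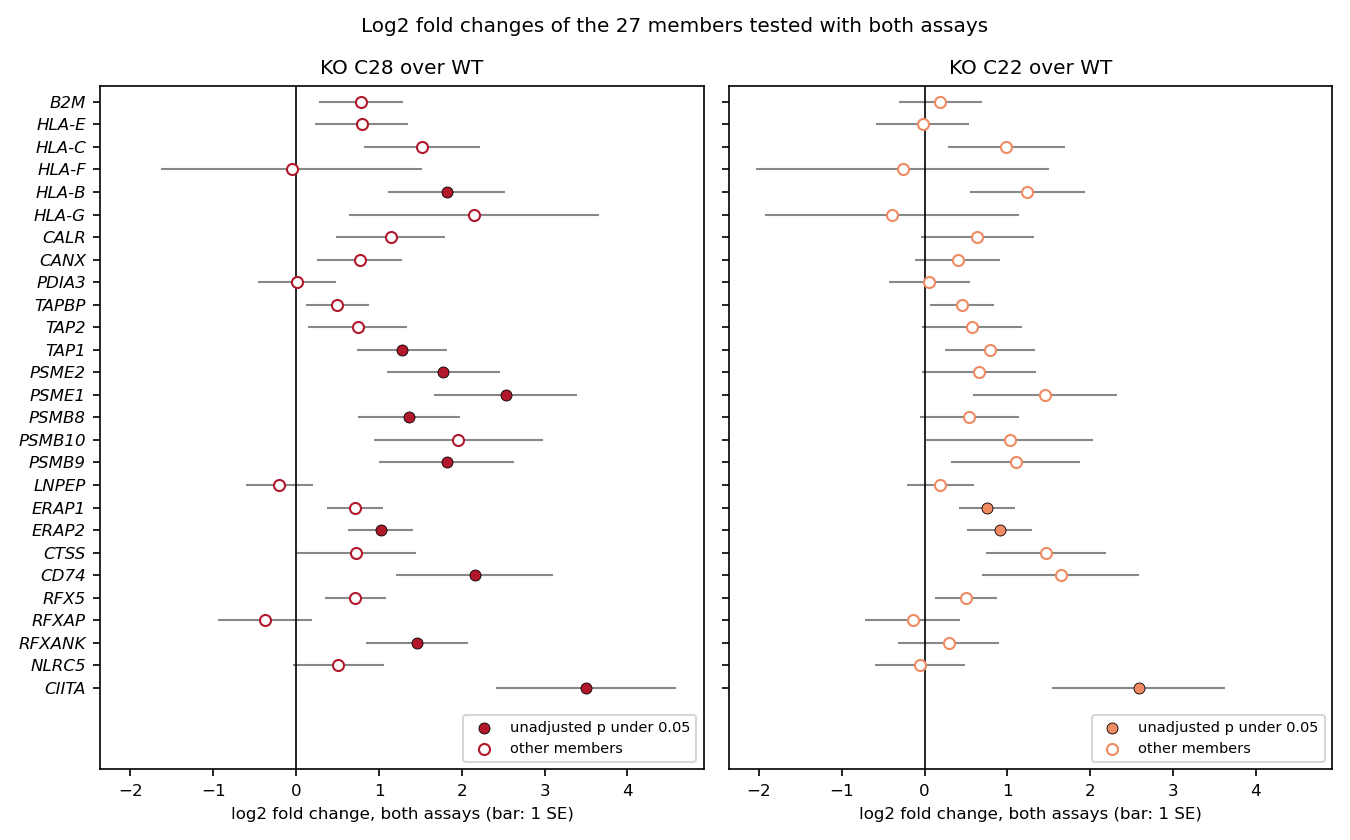
Log2 fold change (horizontal axis) of the 27 antigen presentation genes tested with all 9 libraries, KO C28 over WT on the left and KO C22 over WT on the right, with bars of 1 SE and filled points at an unadjusted p under 0.05. CIITA lies farthest to the right in both clones, at 3.50 and 2.59, and no gene passed after adjustment.

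Class I heavy chains present the peptide, and HLA-B is one of the classical, highly polymorphic ones. HLA-B (chr6:31269491-31357187 in the tables, minus strand) had 11.6 and 46.7 CPM in KO C28, 13.2 and 4.16 CPM in KO C22 and 5.38 and 6.95 CPM in WT in Bru-seq. In BruUV-seq it had 15.1 CPM in KO C28, 35.1 CPM in KO C22 and 8.52 CPM in WT. Both KO C28 Bru-seq libraries lay above both WT libraries, the KO C22 libraries stood on either side of WT, and in BruUV-seq KO C22 was highest. The log2 fold change with both assays was 1.82 (SE 0.70) in KO C28, adjusted p 0.461 by edgeR, and 1.24 (SE 0.70) in KO C22, adjusted p 0.966. The HLA-B gene model of the tables spans 87697 bp, 75085 of them counted, and runs over HLA-C on the same strand. HLA-C, the other classical heavy chain in the set, was counted over 1790 of its 3338 bp and had 4.30 and 19.6 CPM in KO C28, 7.26 and 2.16 CPM in KO C22 and 3.42 and 3.73 CPM in WT in Bru-seq, with both-assay values of 1.52 (SE 0.70) in KO C28 and 0.99 (SE 0.70) in KO C22. Reads of these near-identical genes may have been divided between them.

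B2M, the light chain that every class I molecule needs, was among the most transcribed genes of the set. Its model at chr15:44711477-44718877 (plus strand) had 162 and 313 CPM in KO C28, 125 and 57.2 CPM in KO C22 and 114 and 76.9 CPM in WT in Bru-seq. The BruUV-seq libraries held 80.1 CPM in KO C28, 134 CPM in KO C22 and 106 CPM in WT. KO C28 lay above WT in Bru-seq and below it in BruUV-seq, and KO C22 spanned WT in Bru-seq. With both assays the log2 fold change was 0.79 (SE 0.51) in KO C28 and 0.19 (SE 0.50) in KO C22, both within 2 SE of 0. The upstream windows of HLA-B and B2M are shown because both hold TGACG and CCAAT, letters of the module that RFX proteins and their partners are known to bind. RefSeq sequence (GRCh38.p14) covers the 250 bases before each start, in capitals where it matches TGACG (core of the X2 box), CCAAT, GAAA followed by any 2 bases and GAAA again (interferon stimulated response element) or TTCNNNGAA (gamma activated site) on either strand:
HLA-B, chr6:31357180-31357429, minus strand: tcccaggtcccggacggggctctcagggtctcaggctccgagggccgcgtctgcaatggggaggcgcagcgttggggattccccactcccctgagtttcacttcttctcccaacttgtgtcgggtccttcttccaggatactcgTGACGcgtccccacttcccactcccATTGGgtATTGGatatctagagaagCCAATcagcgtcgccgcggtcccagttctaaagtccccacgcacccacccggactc
B2M, chr15:44711267-44711516, plus strand: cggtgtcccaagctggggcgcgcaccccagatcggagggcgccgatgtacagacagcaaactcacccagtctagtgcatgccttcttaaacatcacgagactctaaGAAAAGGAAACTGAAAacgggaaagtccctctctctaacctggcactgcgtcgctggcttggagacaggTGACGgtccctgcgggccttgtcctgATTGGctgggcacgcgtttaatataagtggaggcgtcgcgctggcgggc

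RefSeq windows matched 27 of the 33 genes, through 42 windows, and HLA-E, HLA-DRA, NLRC5, CIITA, PDIA3 and CTSS were without one. The interferon stimulated response element occurred in 9 of the 42 member windows (21.4%), against 3.02% of all 35116 windows of the same length. The genes concerned were B2M, HLA-F, TAP1, TAP2, TAPBP, PSMB10, PSME2, ERAP2 and RFX5. CCAAT was found in 42.9% of member windows (32.0% of all), TGACG in 33.3% (21.2%) and TTCNNNGAA in 7.14% (6.57%). Windows of a gene can overlap, and matches describe letters only.

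The non-classical heavy chain HLA-E, a ligand of inhibitory receptors on natural killer cells, had 14.7 and 64.4 CPM in KO C28, 10.9 and 13.9 CPM in KO C22 and 11.4 and 27.6 CPM in WT in Bru-seq. After UV light the gene had 38.4 CPM in KO C28, 47.8 CPM in KO C22 and 27.2 CPM in WT. The WT replicates alone differed by more than 2-fold, and only KO C28 replicate 2 lay outside their range on the high side. The fitted log2 fold change with both assays was 0.79 (SE 0.56) in KO C28 and -0.024 (SE 0.57) in KO C22. HLA-F and HLA-G, the other non-classical chains, were near the limit of detection. HLA-F had 0 and 9 reads in KO C28, 0 and 6 reads in KO C22 and 2 and 26 reads in WT in Bru-seq, and 14 reads in KO C28, 34 reads in KO C22 and 12 reads in WT in BruUV-seq. HLA-G had 4 and 19 reads in KO C28, 0 and 1 reads in KO C22 and 7 and 4 reads in WT in Bru-seq, and 15 reads in KO C28, 23 reads in KO C22 and 14 reads in WT in BruUV-seq. With so few reads the fitted values had SEs of 1.51 to 2.62 on the log2 scale wherever either gene was compared between lines, and HLA-G gave 2.14 (SE 1.51) in KO C28 over WT, -0.40 (SE 1.54) in KO C22 over WT and 2.54 (SE 1.79) between the clones. In Bru-seq alone HLA-F gave -0.28 (SE 2.50) in KO C28 and -2.06 (SE 2.59) in KO C22.

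TAP1, a subunit of the peptide transporter, had 8.82 and 17.1 CPM in KO C28, 6.16 and 3.93 CPM in KO C22 and 4.57 and 4.25 CPM in WT in Bru-seq. BruUV-seq levels were 17.9 CPM in KO C28, 30.3 CPM in KO C22 and 10.7 CPM in WT. KO C28 lay above WT in both assays, while KO C22 spanned WT in Bru-seq and was highest in BruUV-seq. Its log2 fold change with both assays was 1.28 (SE 0.54) in KO C28 (unadjusted p 0.0368, adjusted p 0.473 by edgeR) and 0.79 (SE 0.54) in KO C22. PSMB9, an interferon-inducible catalytic subunit of the immunoproteasome, is its divergent neighbour, with RefSeq starts 487 bp apart. PSMB9 had 5.94 and 11.5 CPM in KO C28, 4.78 and 1.32 CPM in KO C22 and 1.99 and 1.01 CPM in WT in Bru-seq. In BruUV-seq it had 4.20 CPM in KO C28, 7.04 CPM in KO C22 and 3.57 CPM in WT. Again both KO C28 libraries exceeded WT in Bru-seq, whereas KO C22 replicate 2 lay within the WT range. PSMB9 gave 1.82 (SE 0.82) in KO C28 and 1.10 (SE 0.78) in KO C22 with both assays. Log2 CPM of the pair correlated at Pearson r = 0.80 over the 9 libraries, which also share depth and background, and the value is a description. The table's PSMB9 model overlaps TAP1 by 7768 bp on the opposite strand, and PSMB9 reads were 0.233 to 0.775 of TAP1 reads in all 9 libraries. The facing upstream windows are shown because they meet between the genes and overlap at their ends, with overlapping matches to the interferon stimulated response element in the TAP1 window, on the reverse strand of the letters printed:
TAP1, chr6:32853705-32853954, minus strand: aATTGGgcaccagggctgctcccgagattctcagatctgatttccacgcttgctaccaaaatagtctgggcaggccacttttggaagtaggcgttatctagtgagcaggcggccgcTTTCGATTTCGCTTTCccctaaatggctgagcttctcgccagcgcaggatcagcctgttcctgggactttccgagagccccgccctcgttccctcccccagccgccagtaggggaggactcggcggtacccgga
PSMB9, chr6:32853942-32854191, plus strand: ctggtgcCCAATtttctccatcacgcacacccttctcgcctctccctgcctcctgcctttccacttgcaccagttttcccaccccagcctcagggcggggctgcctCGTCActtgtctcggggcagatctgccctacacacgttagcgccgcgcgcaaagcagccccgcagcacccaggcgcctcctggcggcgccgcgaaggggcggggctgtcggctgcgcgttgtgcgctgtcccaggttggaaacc

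Among the other loading genes, the chaperones CALR, CANX and PDIA3 and the peptide editor TAPBP (tapasin) were abundant. CALR, which holds unfilled class I molecules in the loading complex, had 103 and 381 CPM in KO C28, 61.8 and 66.9 CPM in KO C22 and 85.3 and 82.0 CPM in WT in Bru-seq. The BruUV-seq libraries held 207 CPM in KO C28, 711 CPM in KO C22 and 200.2 CPM in WT. Both KO C22 Bru-seq libraries lay below both WT libraries and both KO C28 libraries above them, with KO C28 replicate 2 far above replicate 1. The log2 fold change in Bru-seq was 1.24 (SE 0.66) in KO C28, -0.33 (SE 0.65) in KO C22 and 1.57 (SE 0.66) between the clones, with an unadjusted p of 0.0374 and an adjusted p of 0.959 by edgeR. With both assays it was 1.14 (SE 0.66) in KO C28, 0.64 (SE 0.68) in KO C22, where the direction turned, and 0.50 (SE 0.71) between the clones. PDIA3, a disulfide isomerase of the same complex, had 99.8 and 193 CPM in KO C28, 81.0 and 73.2 CPM in KO C22 and 108 and 140.3 CPM in WT in Bru-seq. After UV light the gene had 87.8 CPM in KO C28, 241 CPM in KO C22 and 119 CPM in WT. KO C22 lay below WT in Bru-seq and above it in BruUV-seq, and the both-assay values were 0.014 (SE 0.47) in KO C28 and 0.058 (SE 0.49) in KO C22. CANX, a membrane-bound chaperone, had 308 and 674 CPM in KO C28, 204 and 213 CPM in KO C22 and 295 and 168 CPM in WT in Bru-seq, and TAP2, the partner of TAP1, had 5.82 and 12.7 CPM in KO C28, 6.35 and 3.16 CPM in KO C22 and 3.20 and 6.34 CPM in WT. Of these, CANX gave 0.77 (SE 0.51) in KO C28 and 0.40 (SE 0.52) in KO C22 with both assays, TAP2 gave 0.75 (SE 0.60) and 0.57 (SE 0.60), and TAPBP gave 0.50 (SE 0.38) and 0.46 (SE 0.38). TAP2 lies wholly under another gene model of the same strand, so its count is uncertain.

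The proteasome activator subunits PSME1 and PSME2, which form a ring that opens the proteasome and favours peptide release, varied widely between libraries. PSME1 had 14.5 and 77.3 CPM in KO C28, 11.2 and 3.47 CPM in KO C22 and 7.69 and 3.71 CPM in WT in Bru-seq. BruUV-seq levels were 11.5 CPM in KO C28, 33.02 CPM in KO C22 and 5.36 CPM in WT. KO C28 exceeded WT in all libraries, by most in replicate 2, and KO C22 was high in replicate 1 and in BruUV-seq and below WT in replicate 2. The fitted log2 fold change with both assays was 2.53 (SE 0.87) in KO C28 (unadjusted p 0.0134, adjusted p 0.457 by edgeR) and 1.46 (SE 0.87) in KO C22. PSME2 had 25.0 and 74.4 CPM in KO C28, 10.7 and 7.31 CPM in KO C22 and 15.9 and 6.14 CPM in WT in Bru-seq. In BruUV-seq it had 23.5 CPM in KO C28, 47.7 CPM in KO C22 and 14.2 CPM in WT. Its order over the libraries was much the same, at r = 0.95 with PSME1 over 9 libraries, and the both-assay values were 1.78 (SE 0.68) in KO C28 and 0.66 (SE 0.69) in KO C22. Of the remaining catalytic subunits, PSMB8 had 7.41 and 21.2 CPM in KO C28, 6.45 and 3.47 CPM in KO C22 and 4.48 and 3.20 CPM in WT in Bru-seq, and PSMB10 had 0.751 and 3.37 CPM in KO C28, 0.480 and 0.450 CPM in KO C22 and 0.449 and 0.285 CPM in WT. With both assays PSMB8 and PSMB10 gave 1.36 (SE 0.61) and 1.96 (SE 1.02) in KO C28 and 0.54 (SE 0.60) and 1.03 (SE 1.01) in KO C22. All 5 genes of this group had positive values in both clones with both assays, with group medians of 1.82 in KO C28 and 1.03 in KO C22 and none passing. Of all genes tested, 47.1% were above 0 in KO C28 and 51.5% in KO C22. In Bru-seq alone 4 of the 5 were above 0 in KO C22 (53.5% of all genes), with a group median of 0.45 and PSME2 at -0.23. The upstream windows of PSME1 and PSME2 are shown because these subunits varied together, and the interferon stimulated response element was in the PSME2 window only:
PSME1, chr14:24135944-24136193, plus strand: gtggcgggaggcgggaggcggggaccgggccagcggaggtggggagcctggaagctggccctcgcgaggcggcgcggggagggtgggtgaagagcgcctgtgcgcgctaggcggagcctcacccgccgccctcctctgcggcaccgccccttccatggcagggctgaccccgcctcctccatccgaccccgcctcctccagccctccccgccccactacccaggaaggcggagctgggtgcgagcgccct
PSME2, chr14:24146611-24146860, minus strand: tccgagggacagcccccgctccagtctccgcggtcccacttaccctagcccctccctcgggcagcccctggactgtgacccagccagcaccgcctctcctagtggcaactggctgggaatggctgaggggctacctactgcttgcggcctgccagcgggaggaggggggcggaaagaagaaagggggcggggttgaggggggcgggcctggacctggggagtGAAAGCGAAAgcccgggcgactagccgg

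The trimming peptidases ERAP1 and ERAP2, which shorten peptides in the endoplasmic reticulum before loading, differed little between the KO C28 replicates. ERAP1 and ERAP2 had 44.9 to 46.2 and 32.8 to 36.1 CPM in the KO C28 Bru-seq libraries. In KO C22 they had 36.2 to 40.8 and 20.5 to 27.6 CPM, and in WT 22.2 to 29.1 and 11.3 to 15.6 CPM. For both genes all 4 knockout Bru-seq libraries lay above both WT libraries. With both assays ERAP2 gave 1.02 (SE 0.39) in KO C28 and 0.91 (SE 0.39) in KO C22, with adjusted p of 0.461 and 0.796 by edgeR, and ERAP1 gave 0.71 (SE 0.34) and 0.75 (SE 0.34). LNPEP, an endosomal peptidase used in cross-presentation, had 219 and 119.7 CPM in KO C28, 196 and 265 CPM in KO C22 and 217 and 165 CPM in WT in Bru-seq. The BruUV-seq libraries held 128 CPM in KO C28, 139 CPM in KO C22 and 156 CPM in WT. Its groups overlapped, and it gave -0.20 (SE 0.41) in KO C28 and 0.19 (SE 0.41) in KO C22 with both assays.

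**Figure D2:**
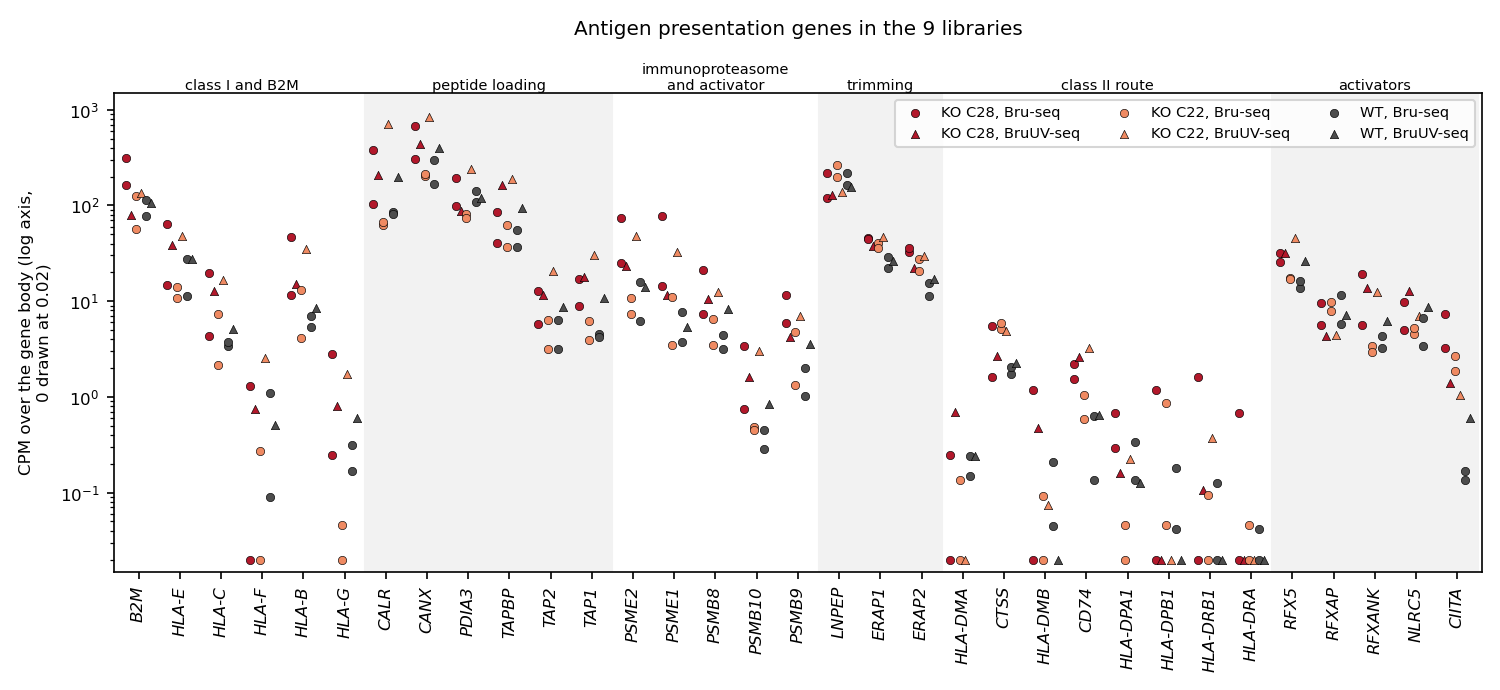
CPM over the gene body (log axis) of the 33 antigen presentation genes by role, in the 6 Bru-seq libraries (circles) and 3 BruUV-seq libraries (triangles) of KO C28, KO C22 and WT. CANX, LNPEP, B2M, PDIA3 and CALR have the highest medians, the class II dimer genes are at or near 0, and 1 KO C28 circle lies above the other in most columns.

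Set per kb of counted length over the Bru-seq libraries (mean ± SD, n = 2 per line), the set spanned a wide range. CALR, the highest in KO C28 and WT, had 41.6 ± 33.8 CPM per kb in KO C28, 11.0 ± 0.618 in KO C22 and 14.4 ± 0.401 in WT. B2M, the highest in KO C22, had 32.1 ± 14.4 CPM per kb in KO C28, 12.3 ± 6.44 in KO C22 and 12.9 ± 3.51 in WT, and the pair overlapped within their spread in each line. In WT, CALR, B2M, CANX, PDIA3, HLA-E and TAPBP lay at the 98.4, 98.1, 96.0, 92.7, 91.5 and 88.1 percentiles of tested genes. NLRC5 lay at 26.0 and CIITA at 4.15. HLA-B lay at 28.7, per kb of a model of 75.1 counted kb that also spans HLA-C, a length that lowers the value. HLA-C, counted over 1.79 kb, lay at 79.6, though its mean in WT was 3.57 CPM against 6.17 CPM for HLA-B.

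Class II dimer genes had few reads. HLA-DRA, the alpha chain of HLA-DR, had 11 and 0 reads in KO C28, 0 and 1 reads in KO C22 and 0 and 1 reads in WT in Bru-seq. After UV light the gene had 0 reads in KO C28, 0 reads in KO C22 and 0 reads in WT. KO C28 replicate 1 was the only library with more than 1 read. HLA-DPB1, the beta chain of HLA-DP, had 0 and 8 reads in KO C28, 18 and 1 reads in KO C22 and 4 and 1 reads in WT in Bru-seq. BruUV-seq levels were 0 reads in KO C28, 0 reads in KO C22 and 0 reads in WT. Its 18 reads in KO C22 replicate 1 stood against 1 in replicate 2, and its fitted values in KO C28, 1.88 (SE 2.59), and KO C22, 2.08 (SE 2.56), were smaller than their SEs. HLA-DRB1, HLA-DPA1, HLA-DMA and HLA-DMB had 0 to 13 reads in each library.

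CD74, the invariant chain that guards the class II groove, had 1.53 and 2.19 CPM in KO C28, 1.05 and 0.594 CPM in KO C22 and 0.136 and 0.632 CPM in WT in Bru-seq. In BruUV-seq it had 2.60 CPM in KO C28, 3.22 CPM in KO C22 and 0.640 CPM in WT. Both KO C28 libraries lay above WT and KO C22 overlapped WT in Bru-seq, and both clones stood above WT in BruUV-seq, at 3 to 49 reads per library. Its log2 fold change with both assays was 2.16 (SE 0.95) in KO C28, adjusted p 0.478 by edgeR, and 1.64 (SE 0.94) in KO C22, adjusted p 0.972. Its 15 reads in KO C28 replicate 2 stood against 10.3 at the olfactory receptor density, and with that density subtracted CD74 was no longer at an unadjusted p under 0.05 in KO C28. CTSS, the endosomal protease that cleaves CD74, had 5.51 and 1.61 CPM in KO C28, 5.16 and 5.99 CPM in KO C22 and 1.72 and 2.06 CPM in WT in Bru-seq. The BruUV-seq libraries held 2.66 CPM in KO C28, 4.87 CPM in KO C22 and 2.25 CPM in WT. KO C22 was above WT in all libraries, whereas KO C28 replicate 2 lay below both WT libraries. The both-assay values were 0.73 (SE 0.72) in KO C28 and 1.47 (SE 0.73) in KO C22, adjusted p 0.737 and 0.909.

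CIITA, the master activator of class II genes, had the largest log2 fold change of the set in both clones. Its model (chr16:10877198-10932281, plus strand, 55084 bp) held 53 and 50 reads in KO C28, 39 and 58 reads in KO C22 and 3 and 4 reads in WT in Bru-seq. In BruUV-seq it held 26 reads in KO C28, 14 reads in KO C22 and 14 reads in WT. All 4 knockout Bru-seq libraries lay far above both WT libraries, and in BruUV-seq KO C22 and WT had the same number of reads in libraries of different depth. The WT reads were too few for the low-count filter, so CIITA entered both fits through the knockout libraries. A gene kept in this way lies above WT by selection, so its rank in the set is a description. The log2 fold change in Bru-seq was 4.81 (SE 1.38) in KO C28 (unadjusted p 0.00513, adjusted p 0.728 by edgeR) and 3.88 (SE 1.33) in KO C22 (unadjusted p 0.0140, adjusted p 1). With both assays it was 3.50 (SE 1.09) and 2.59 (SE 1.05), adjusted p 0.416 and 0.740. With the olfactory receptor read density subtracted, CIITA with both assays was no longer at an unadjusted p under 0.05 in either clone, and in KO C22 0 members were, while with Bru-seq alone it was in both. That subtraction set CIITA to 0 reads in both Bru-seq WT libraries and in KO C28 replicate 2. In Bru-seq the remaining knockout libraries, only replicate 1 in KO C28, were thus set against 0, so this result does not show freedom from background.

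As ratios of reads per scaled depth, with exact 95% intervals that cover counting error only, CIITA in Bru-seq was 29.1 (13.6 to 74.3) in KO C28 over WT and 14.8 (6.93 to 37.9) in KO C22 over WT. In BruUV-seq the ratios were 2.32 (1.17 to 4.81) and 1.76 (0.778 to 3.99). At the read density over olfactory receptor genes, a gene of this length would hold 8.86 and 50.2 reads in KO C28, 31.0 and 5.86 in KO C22 and 10.8 and 6.80 in WT. KO C28 replicate 1 and KO C22 replicate 2 lay well above that density, KO C22 replicate 1 near it, KO C28 replicate 2 at it and both WT libraries below it. From the library of each clone with the lower olfactory density alone the ratios were 21.3 (9.64 to 55.5) and 17.4 (7.91 to 45.1), a choice made after the data were seen. The neighbouring gene NUBP1 had 19.6 and 17.98 CPM in KO C28, 17.4 and 27.2 CPM in KO C22 and 13.4 and 17.5 CPM in WT. CLEC16A, on its other side, had 103 and 49.9 CPM in KO C28, 97.3 and 203 CPM in KO C22 and 104 and 141 CPM in WT. Neither of these neighbours differed between clones and WT by a factor like that of CIITA. DEXI, whose model overlaps that of CIITA on the opposite strand, had 9.13 and 10.1 CPM in KO C28, 6.78 and 4.79 CPM in KO C22 and 11.7 and 11.9 CPM in WT, lower in all 4 knockout libraries than in both WT libraries. Whether reads of CIITA and DEXI were shared was not tested.

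**Figure D3:**
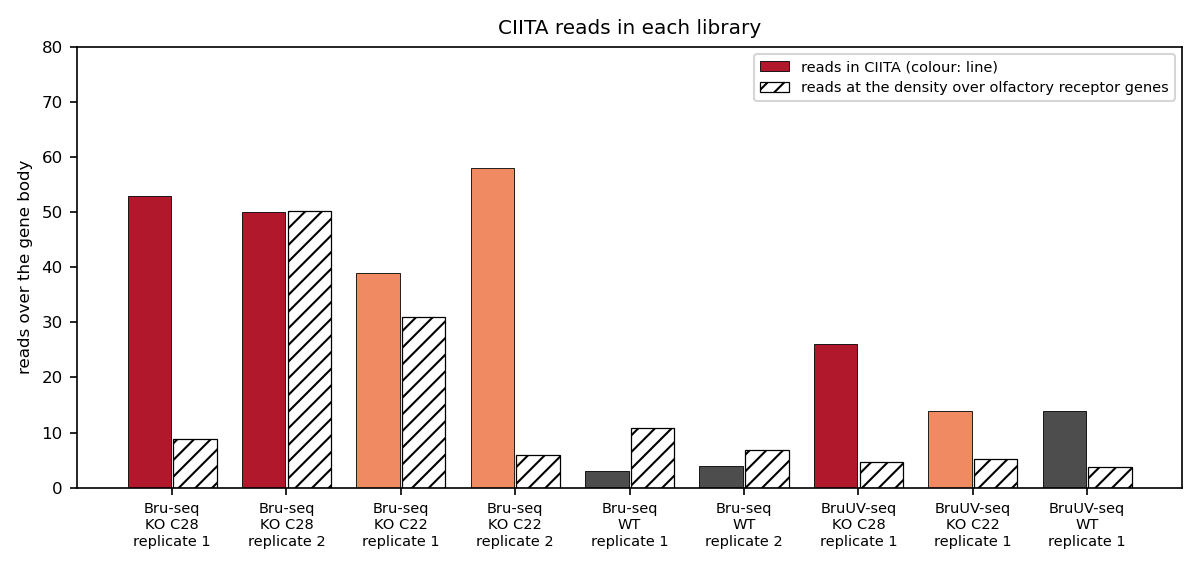
Reads over CIITA in each library (filled bars, coloured by line) beside the reads that the density over olfactory receptor genes would give for its length (hatched bars). The KO C28 and KO C22 Bru-seq libraries held 39 to 58 reads and the WT libraries 3 and 4, and in KO C28 replicate 2 both bars stand at 50 reads.

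NLRC5, the activator of class I genes, had 4.96 and 9.79 CPM in KO C28, 4.49 and 5.26 CPM in KO C22 and 3.39 and 6.69 CPM in WT in Bru-seq. After UV light the gene had 12.8 CPM in KO C28, 7.04 CPM in KO C22 and 8.67 CPM in WT. Its groups overlapped, and the both-assay values were 0.51 (SE 0.54) in KO C28 and -0.055 (SE 0.54) in KO C22. NLRC5 had 67 reads in KO C28 replicate 2, below the 85.7 reads that the olfactory receptor density gives, and with that density subtracted the KO C28 value turned to -0.36. Of the RFX subunits, RFXANK had 5.64 and 19.1 CPM in KO C28, 3.44 and 2.93 CPM in KO C22 and 4.34 and 3.24 CPM in WT in Bru-seq. BruUV-seq levels were 13.6 CPM in KO C28, 12.4 CPM in KO C22 and 6.20 CPM in WT. RFXANK was high in both KO C28 libraries, most of all in replicate 2. Its both-assay values were 1.46 (SE 0.61) in KO C28 (unadjusted p 0.0354, adjusted p 0.471 by edgeR) and 0.29 (SE 0.61) in KO C22. RFXAP had 9.62 and 5.70 CPM in KO C28, 9.79 and 7.86 CPM in KO C22 and 11.7 and 5.73 CPM in WT in Bru-seq. In BruUV-seq it had 4.30 CPM in KO C28, 4.42 CPM in KO C22 and 7.18 CPM in WT. The groups of RFXAP overlapped in Bru-seq and both clones lay below WT in BruUV-seq. The both-assay values of RFXAP were -0.37 (SE 0.57) in KO C28 and -0.14 (SE 0.57) in KO C22. RFX5, a DNA-binding subunit, had 25.8 and 31.6 CPM in KO C28, 17.6 and 17.0 CPM in KO C22 and 13.8 and 16.2 CPM in WT in Bru-seq. Its both-assay values were 0.71 (SE 0.37) in KO C28 and 0.50 (SE 0.37) in KO C22.

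Genes upstream and beside the pathway were set next to these values. Of 16 interferon response genes, 15 could be tested with both assays and 0 passed. In KO C28 5 were higher at an unadjusted p under 0.05, IFI6, IFI44, OAS3, SAMD9 and SAMD9L, and 0 lower, against 7.55% higher of all genes, with a median log2 fold change of 1.02 (-0.06 for all genes). In KO C22 1 was higher, SAMD9L, against 3.2% of all genes, with a median of 0.076. The 16 genes summed to 175 and 345 CPM in KO C28, 64.2 and 100 CPM in KO C22 and 54.6 and 220 CPM in WT in Bru-seq. By this sum KO C28 replicate 1 lay between the WT replicates and only replicate 2 above them. In BruUV-seq the sums were 168 CPM in KO C28, 130 CPM in KO C22 and 102 CPM in WT. Of 14 tested signalling genes of interferon 0 passed in either clone, TYK2 was higher in KO C22 at an unadjusted p under 0.05, and the median was -0.23 in KO C28 and 0.092 in KO C22. JAK1, a kinase of interferon receptors, had 164 and 143 CPM in KO C28, 155 and 358 CPM in KO C22 and 167 and 214 CPM in WT in Bru-seq, and IRF1, an early interferon target, had 28.6 and 25.4 CPM in KO C28, 26.1 and 17.96 CPM in KO C22 and 11.6 and 39.6 CPM in WT. For IRF1 the WT replicates enclosed all 4 knockout libraries. With both assays JAK1 gave -0.26 (SE 0.40) in KO C28 and 0.44 (SE 0.40) in KO C22, and IRF1 gave -0.023 (SE 0.46) and -0.27 (SE 0.46).

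The constitutive proteasome list had 0 of 16 genes passing, with both-assay medians of 0.15 in KO C28 and -0.14 in KO C22. Other loading and endosomal genes had 0 of 13 passing, with medians of 0.28 and 0.015. Among them the lysosomal protease CTSD was higher in KO C28 at 3.44 (SE 0.71) and in KO C22 at 1.61 (SE 0.68), with adjusted p of 0.119 and 0.785 by edgeR, and CTSH, a related protease, gave -2.73 (SE 0.73) in KO C22. Both were named after their values were seen. The partners of RFX (5 genes) and class I like ligands (8 tested) had 0 passing, and medians of -0.11 and 0.39 in KO C28 and -0.040 and -0.065 in KO C22. Fibroblast markers summed to 37.4 CPM in BruUV-seq KO C22, against 1.86 to 18.3 CPM in the other 8 libraries, and KRT8 and KRT18 stood at 904 and 792 CPM in Bru-seq KO C28 replicate 2, against 21.8 to 670 CPM for either gene in the others. The part of these library differences in the members' values was not tested.

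BruUV-seq, in which UV lesions halt elongating polymerase and shift reads toward gene starts, was compared with Bru-seq over all lines (3 against 6 libraries). Here too 0 of 27 genes passed (0.447% of all genes), with adjusted p from 0.0577 for TAPBP to 0.934 for CTSS. At an unadjusted p under 0.05, 6 genes were higher in BruUV-seq (14% of all genes), TAPBP, TAP1, TAP2, CALR, CANX and RFX5, and 0 lower, with a median of 0.80 against -0.03 for all genes. TAPBP had 164 CPM in KO C28, 187 CPM in KO C22 and 93.6 CPM in WT in BruUV-seq. In Bru-seq it had 40.6 and 85.1 CPM in KO C28, 36.4 and 63.2 CPM in KO C22 and 37.1 and 55.2 CPM in WT. All 3 BruUV-seq libraries lay above all 6 Bru-seq libraries for TAPBP, at a log2 fold change of 1.53 (SE 0.32). The largest values were those of HLA-G, 2.34 (SE 1.48), CALR, 1.78 (SE 0.60), and HLA-F, 1.77 (SE 1.59), and the lowest those of RFXAP, -0.66 (SE 0.51), LNPEP, -0.44 (SE 0.36), and CIITA, -0.19 (SE 0.99).

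The members are short, with a median counted length of 9.88 kb against 25.8 kb for all genes tested in Bru-seq, and short genes as a class had higher values in BruUV-seq. Under 5 kb the 9 members had a median of 0.94 against 0.58 for all genes, and from 5 to 20 kb the 9 members had 1.05 against 0.55. From 20 to 50 kb the 5 members had 0.07 against 0.01, and above 50 kb the 4 members CIITA, HLA-B, LNPEP and NLRC5 had 0.25 against -0.69. Singly these 4 gave -0.19, 0.69, -0.44 and 0.77 in that order. HLA-B falls in this bin through a model that also spans HLA-C, so the median of the 4 depends on that model. Without Bru-seq KO C28 replicate 2, 6 members passed the assay comparison, CALR, CANX, HLA-E, RFXANK, TAP1 and TAPBP, as did 3305 of all genes, and 12 were higher at an unadjusted p under 0.05 (17.3% of all genes). Without BruUV-seq KO C22 the unadjusted count was 1 (6.68%) and the median 0.40, and without BruUV-seq KO C28 they were 7 (7.42%) and 1.22. The count was 3 without BruUV-seq WT (8.96%) or Bru-seq KO C22 replicate 2 (12.0%), and 4 without Bru-seq KO C22 replicate 1 (10.8%) or KO C28 replicate 1 (9.17%). With an offset for gene length 2 members were higher and 1 lower at that p (9.64% of all genes higher), and the members' median was 0.23.

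**Figure D4:**
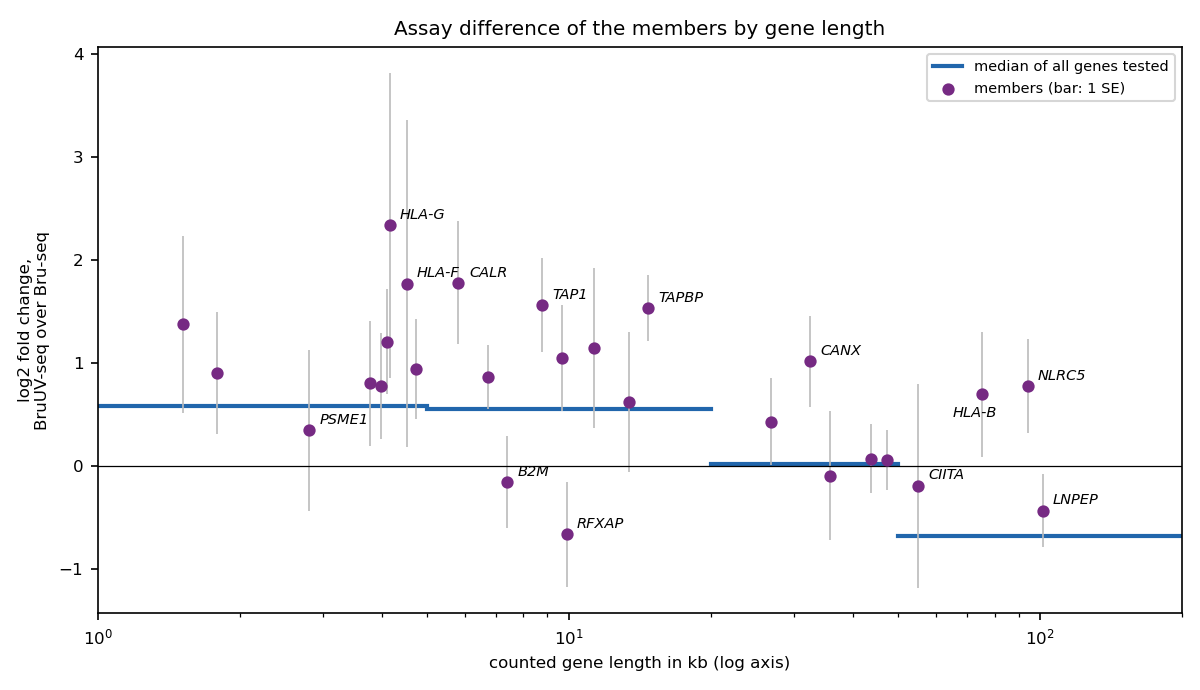
Log2 fold change of BruUV-seq over Bru-seq (vertical axis, bars of 1 SE) against counted gene length in kb (log axis) for the 27 tested members, with the median of all genes in 4 length bins as lines. Members under 20 kb lie mostly above 0 and LNPEP, the longest, below it.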

How the data were processed

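Nascent RNA was measured in 6 Bru-seq and 3 BruUV-seq libraries of PANC-1 cells. The authors deposited tables of estimated counts per gene body with RPKM, which served here only to check levels, and the submitters' processing notes name CASAVA 1.8.2, Bowtie2 2.3.3, STAR 2.5.3a, bedtools 2.16.2, hg38 and GRCh38 without roles. The deposited RPKM values were scaled to length and reads by the authors. The counted length in the deposited tables was shorter than the gene model for 10 members. Strand-specific counting is stated for certain samples only. Counts were rounded and tested with edgeR 4.0.16 in R 4.3.3 (filterByExpr by line, TMM, quasi-likelihood F test, Benjamini-Hochberg), over 22827 genes in Bru-seq and 20819 with both assays, in that fit with assay as a term. The SE is the log2 fold change over the root of F. Alternatives were DESeq2 1.42.0, limma-voom (limma 3.58.1), other scalings and filters, a length offset, background subtraction, a replicate block and libraries left out. The fits were tested on simulated data of smaller spread than these libraries, which does not show their power or error here. Named genes were the 3 largest rises and falls per comparison plus CIITA, NLRC5, HLA-B, B2M, TAP1, PSMB9, HLA-DRA, CD74, IRF1 and JAK1, and 1 further gene under this rule is not reported here. Members and lists were chosen with earlier results of these data known. Intervals cover counting error only.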

Additional observations from a re-analysis of the deposited data

Results flagged for a closer look

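CALR stood out because the clones lay on opposite sides of WT in Bru-seq. It had 103 and 381 CPM in KO C28, 61.8 and 66.9 CPM in KO C22 and 85.3 and 82.0 CPM in WT. The log2 ratio of the clones' means was 1.91, KO C28 over KO C22. The edgeR test of that difference gave 1.57 (SE 0.66), unadjusted p 0.0374 and adjusted p 0.959, so it did not pass, and KO C28 replicate 2 held the highest Bru-seq value. In BruUV-seq CALR had 207 CPM in KO C28, 711 CPM in KO C22 and 200.2 CPM in WT, and with both assays the difference between the clones was 0.50 (SE 0.71), unadjusted p 0.494.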

How the results depend on the processing

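The count of members past the adjusted threshold was 0 in all 7 comparisons, and the other settings left it at 0 with these exceptions. In KO C28 over WT in Bru-seq DESeq2 called 1 member (199 of 22827 genes). With both assays DESeq2 called 2 (711 of 20819 genes) and edgeR without the filter 3 (1100 of 40508). In BruUV-seq over Bru-seq DESeq2 called 3 (3866 of 20819 genes), limma-voom 1 (640 of 20819) and edgeR without the filter 2 (2326 of 40508). Leaving out both libraries of high olfactory signal, chosen after seeing the data, gave 3 (2552 of 21392 genes), and leaving out single libraries gave 0 to 6. The cause was not tested. Signs are listed for the named genes only, and other members turned too. KO C22 over WT in Bru-seq had 20 of 27 members above 0 (53.5% of all genes), and 10 of 29 without KO C22 replicate 1. KO C28 over KO C22 with both assays had 22 of 27 (50.4% of all genes), and 14 without both libraries of high olfactory signal. Log2 fold changes of named genes took the other sign as follows. With limma-voom the value was B2M -0.089 for KO C22 over WT in Bru-seq and HLA-F 0.30 for KO C22 over WT with both assays. With no filter the value was NLRC5 -0.085 and B2M -0.043 for KO C22 over WT in Bru-seq and HLA-F 0.11 for KO C28 over WT with both assays. With a gene length offset the value was NLRC5 -0.36 for KO C22 over WT in Bru-seq and LNPEP 0.070 for BruUV-seq over Bru-seq with both assays. With the olfactory density subtracted the value was NLRC5 -0.30 for KO C22 over WT in Bru-seq, NLRC5 -0.98 for KO C28 over WT in Bru-seq, NLRC5 -0.69 for KO C28 over KO C22 in Bru-seq, NLRC5 -0.36 for KO C28 over WT with both assays, NLRC5 -0.030 for KO C28 over KO C22 with both assays and CIITA 0.96 for BruUV-seq over Bru-seq with both assays. With a replicate block the value was B2M -0.037 for KO C22 over WT in Bru-seq. Without both libraries of high olfactory signal the value was B2M -0.072, HLA-G 0.12 and HLA-F 0.018 for KO C22 over WT with both assays, LNPEP 0.082 for KO C28 over WT with both assays, HLA-B -0.054, HLA-G -0.054 and RFXAP 0.22 for KO C28 over KO C22 with both assays and B2M 0.14 for BruUV-seq over Bru-seq with both assays. With DESeq2 the value was HLA-F 0.22 for KO C28 over WT with both assays. With relative log expression factors the value was HLA-F 0.15 for KO C28 over WT with both assays. BruUV-seq over Bru-seq with both assays spanned B2M -0.50 to 0.36, CIITA -1.35 to 0.58 and HLA-B -0.028 to 1.31 over single libraries left out. KO C22 over WT in Bru-seq spanned B2M -0.77 to 0.51, HLA-B -0.60 to 1.22, HLA-E -1.12 to 0.17, HLA-F -6.44 to 0.55, NLRC5 -0.42 to 0.57, PSMB9 -0.21 to 1.79 and TAP1 -0.20 to 0.60 over single libraries left out. KO C22 over WT with both assays spanned B2M -0.24 to 0.53, HLA-F -1.94 to 1.44, HLA-G -3.40 to 0.57, NLRC5 -0.32 to 0.22 and RFXAP -0.46 to 0.053 over single libraries left out. KO C28 over KO C22 in Bru-seq spanned CTSS -2.22 to 0.010, HLA-F -4.50 to 6.13 and RFXAP -1.06 to 0.13 over single libraries left out. KO C28 over KO C22 with both assays spanned HLA-B -0.30 to 1.51 and RFXAP -0.42 to 0.012 over single libraries left out. KO C28 over WT in Bru-seq spanned HLA-F -6.67 to 2.33, LNPEP -1.04 to 0.20, NLRC5 -0.12 to 0.87 and RFXAP -0.98 to 0.30 over single libraries left out. KO C28 over WT with both assays spanned HLA-F -2.68 to 2.05 and LNPEP -0.40 to 0.073 over single libraries left out. Same-numbered replicates correlated in their deviations from the line means at 0.427 (KO C22 and WT), 0.00409 (KO C28 and WT) and -0.479 (KO C28 and KO C22), so the numbers were not taken to pair the libraries. The replicate block called 0 members after adjustment, and 3 in KO C28 over WT (1.62% of all genes), 1 in KO C22 over WT (1.06%) and 1 between the clones (1.31%) higher at an unadjusted p under 0.05. With so few libraries a line and a common coefficient of variation of 79.3% in Bru-seq (63.4% with both assays), small differences were not detectable. Class II genes, HLA-F, HLA-G, PSMB10 and CIITA rested on few reads.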
